A study of Mus musculus with 27 samples.

Results

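The loss of all 3 cytosolic YTH-domain readers from mouse embryonic stem cells was compared with the sum of what the loss of each reader did alone. The comparison used 10 of the 27 libraries of the series, 2 in each of 5 groups, all polyadenylated RNA from mouse embryonic stem cells on the KH2 (C57BL/6 x 129/Sv) background, grown in serum with LIF. The groups were triple-knockout cells (Ythdf1-/-Ythdf2-/-Ythdf3-/-), Ythdf1-/- cells, Ythdf2-/- cells, Ythdf3-/- cells and wild-type cells of the same background. For each gene the departure was the log2 effect of the triple knockout over wild type minus the sum of the 3 single-knockout effects over wild type. A departure of 0 means that the single effects added up to the triple effect. The sources used here do not say which clone or how many clones each genotype stands for, nor which part of each gene was deleted. Nothing in the labels says that the 2 libraries of a genotype came from separate cultures, so each p-value reflects library-to-library spread that may be technical.

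YTHDF1, YTHDF2 and YTHDF3 bind N6-methyladenosine (m6A), a methyl mark that the METTL3 complex writes into mRNA, and YTHDF2 in particular recruits deadenylases to marked transcripts. The 3 proteins share their RNA-binding domain and most of their sequence, and whether they act on the same transcripts or on different ones has been debated. If readers can stand in for one another, single losses do little and the joint loss does more than their sum. If they act apart, the effects add up. In embryonic stem cells m6A is known for keeping pluripotency transcripts short-lived.

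The 10 libraries held 612598 to 1111764 counts over 14006 genes, with wild type the deepest, and 11951 genes were tested. The 100 most abundant genes held 6.10% to 6.72% of the counts. Ythdf1 had 161 and 162 CPM (counts scaled to a common library size, after TMM scaling) in triple-knockout cells, against 179 and 173 CPM in wild-type cells. Ythdf2 had 35.9 and 30.1 CPM in triple-knockout cells and 18.1 and 10.5 CPM in Ythdf2-/- cells, against 26.1 and 24.96 CPM in wild-type cells. Ythdf3 had 82.7 and 63.0 CPM in triple-knockout cells, against 73.0 and 66.0 CPM in wild-type cells. None of the 3 targeted genes was called in the triple knockout. Counts over a whole gene do not check a deletion whose position is not given, so these values check no label. Within each genotype the 2 libraries differed by less than counting error, with a mean chi-square per gene of 0.694 to 0.809. All 5 pairs did so, and each library was counted as a sample. Defining stem cell markers (Pou5f1, Nanog, Sox2, Zfp42, Esrrb, Klf4, Dppa5a and Utf1, 8 of 8 in the table) summed to 3599 to 3731 CPM in triple-knockout libraries, 3544 to 3919 CPM in single-knockout libraries and 3333 to 3338 CPM in wild-type libraries.

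The triple knockout changed far more genes than its departure from additivity did. By edgeR's quasi-likelihood test, at a Benjamini-Hochberg adjusted p under 0.05, 1590 genes (13.3% of those tested) rose and 1406 (11.8%) fell in triple-knockout cells relative to wild type. The single knockouts changed 412 (3.45%), 228 (1.91%) and 340 (2.84%) genes for Ythdf1, Ythdf2 and Ythdf3. The sum of the single effects was called higher than 0 for 309 genes (2.59%) and lower for 345 (2.89%). The departure was called for 225 genes, 101 of them higher than the sum (0.845%) and 124 lower (1.04%). Of the 2996 genes called in the triple knockout, 102 also had a called departure. Over all tested genes the median departure was -0.002.

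The departure combines 5 groups and counts wild type with a weight of 2, and the sum counts it with a weight of 3. The median standard error was 0.34 for the departure, 0.18 for the triple effect and 0.39 for the sum (log2). Among the 2894 genes called in the triple knockout without a called departure, the 95% interval of the departure reached a median of 0.69 to either side on the log2 scale, so additivity is not shown for them. DESeq2 called 5 departures (0.0418%), against 1470 genes at an unadjusted p under 0.05 in edgeR and 363 in DESeq2. Raising the quasi-dispersion to at least the Poisson level left 163 (1.36%). Without wild-type library A the count was 83, without wild-type library B 97, and without triple-knockout library B 127. Without Ythdf2-/- library B, 64 departures were called higher.

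**Figure D1:**
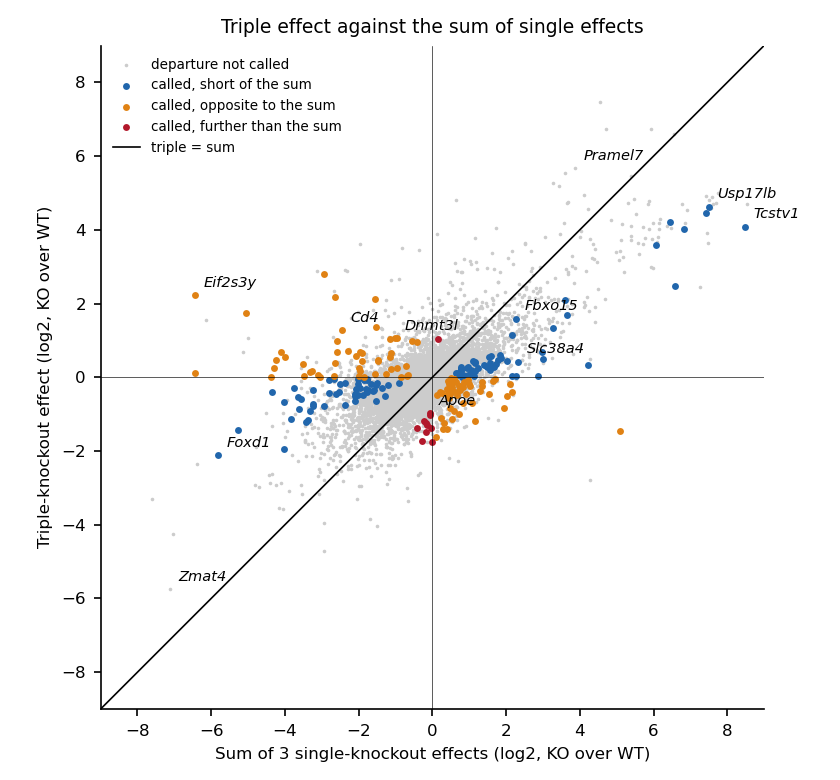
Each point is a gene, with the sum of its 3 single-knockout effects on the horizontal axis and its triple-knockout effect on the vertical axis, both log2 over wild type; the diagonal marks equal values. The 225 called departures are coloured by class, and 1 of them lies outside the axes, which end at 9 in either direction. For 91 of the 225 genes the sum was called and the triple effect was not, and for 54 the reverse held.

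The called departures were sorted by the fitted sign and size of the triple effect and of the sum. In 11 of the 225 the triple effect had the direction of the sum and exceeded it, and 10 of these were lower in the triple knockout. In 106 the triple effect had the direction of the sum but fell short of it. In 108 the triple effect and the sum had opposite signs. These classes use the fitted values whether or not the triple effect or the sum was itself called. Of the 101 higher departures, 51 were short and 49 opposite. Of the 124 lower ones, 55 were short and 59 opposite. The triple effect itself was not called for 123 of the 225 genes, while the sum was called for 139. For 91 genes the sum was called and the triple effect was not. For 54 the triple effect was called and the sum was not, and 14 higher and 29 lower departures of these 54 were in the opposite class. The sum was called for 0 of the 11 genes further than the sum. Where the sum was not called its sign is uncertain, and that sign decides between the further and the opposite class. The class counts thus do not say how often the joint loss exceeded the single losses. Leaving out single libraries left 4 to 10 genes further than the sum, with the fewest without wild-type library B and 5 without wild-type library A or triple-knockout library B, 6 without Ythdf3-/- library B, and 7 without library B of Ythdf1-/- or of Ythdf2-/-.

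Most of these genes shared 1 shape, in which the 3 single knockouts stood to one side and the triple knockout stood with wild type on the other. Among the 101 higher departures, 75 (74.3%) had both the triple-knockout mean and the wild-type mean above all 3 single-knockout means, against 8.19% of all tested genes. Among the 124 lower ones, 86 (69.4%) had both means below all 3 single-knockout means, against 8.02% of all tested genes. The departure gives the triple knockout and wild type the same sign, so the choice of these genes fixes part of this shape. All 3 single knockouts lay below wild type in 94 of the 101, against 3463 of all 11951 tested genes. They lay above it in 109 of the 124, against 3431 of the 11951. The departure gives the singles and wild type opposite signs, so the choice of genes fixes part of this too. The wild-type libraries enter all 3 single effects. Called lower departures were of abundant transcripts, with a median wild-type level of 108 CPM, against 56.9 CPM for all tested genes. Called higher departures had a median wild-type level of 41.7 CPM.

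Apoe, which encodes the lipid carrier apolipoprotein E and lies at chr7:19696109-19699188 (mm10, minus strand), was lower in the triple knockout than in wild type and in each single knockout. It had 388 and 404 CPM in triple-knockout libraries, 718 and 761 CPM in Ythdf1-/-, 787 and 764 CPM in Ythdf2-/- and 812 and 752 CPM in Ythdf3-/- libraries, against 769 and 779 CPM in wild type. The triple-knockout libraries lay far below all 8 others, which ran from 718 to 812 CPM. The triple effect was -0.97 ± 0.07 (log2, SE) and the sum of the singles -0.06 ± 0.13, giving a departure of -0.91 ± 0.12 (edgeR adjusted p = 1.667e-07, n = 2 each). DESeq2 called it as well, with an adjusted p of 0.02021, and the call held without each library in turn.

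In Mettl3-/- cells, which lack the m6A writer and are outside the contrast, Apoe averaged 623 CPM against 774 CPM in wild type, a change of -0.32 ± 0.06 (edgeR adjusted p = 1.359e-05).

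Sept1, a septin of the cytoskeleton, had 140 and 136 CPM in triple-knockout libraries, 306 to 356 CPM in the 6 single-knockout libraries and 340 and 379 CPM in wild type. Its departure was -0.96 ± 0.16 (edgeR adjusted p = 6.192e-05), and the triple-knockout libraries did not overlap those of the other 4 groups of the contrast. In Mettl3-/- cells Sept1 averaged 165 CPM against 359 CPM in wild type, a change of -1.13 ± 0.09 (edgeR adjusted p = 7.247e-18), beside -1.38 in the triple knockout. Pla2g1b, a secreted phospholipase A2, averaged 37.0 ± 11.7 CPM in triple-knockout cells, with the singles at 95.9 ± 2.7, 111 ± 0.4 and 139 ± 9.9 CPM, and 121 ± 5.96 CPM in wild type (SD, n = 2 each). Its departure was -1.45 ± 0.26 (edgeR adjusted p = 0.001689), with an adjusted p of 0.0827 without triple-knockout library B. Halr1, a long noncoding RNA beside the Hoxa genes, averaged 51.6 CPM in triple-knockout cells, 113, 147 and 164 CPM in Ythdf1-/-, Ythdf2-/- and Ythdf3-/- cells, and 145 CPM in wild type, a departure of -1.31 ± 0.24 (edgeR adjusted p = 0.001243). Gpa33, a cell-surface glycoprotein, and Polr3gl, a subunit of RNA polymerase III, departed by -0.97 ± 0.19 and -0.97 ± 0.22. Gpa33 missed the threshold without triple-knockout library B (edgeR adjusted p = 0.05696), and Polr3gl missed it in 7 of 10 fits with a library left out, with an adjusted p of up to 0.1106. The other genes further below the sum, named after their values were seen, were Fst, which encodes the activin antagonist follistatin, the mitochondrial iron-sulfur protein gene Cisd3, Lrrc31 and Gm6792. The call was lost without wild-type library B for Fst (edgeR adjusted p = 0.05222), and in 3, 5 and 4 of the 10 fits with a library left out for Cisd3, Lrrc31 and Gm6792. Fst had 18.7 and 20.5 CPM in triple-knockout libraries, 51.4 to 73.7 CPM in single-knockout libraries and 67.6 and 65.1 CPM in wild type. The gene further above the sum was D630045M09Rik, also named after its values were seen, with 259 and 257 CPM in triple-knockout libraries against 120 and 131 CPM in wild type, and its call was lost in 8 of 10 fits with a library left out.

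Another set of genes was high in the triple knockout and lay below or near wild type in the single knockouts. Dnmt3l, a catalytically inactive partner of the de novo DNA methyltransferases, had 159 and 160 CPM in triple-knockout libraries, 68.9 and 70.0 CPM in Ythdf1-/-, 58.2 and 55.9 CPM in Ythdf2-/- and 51.9 and 61.1 CPM in Ythdf3-/- libraries, against 74.8 and 77.6 CPM in wild type. The triple knockout stood above every other library and the singles stood below wild type. The triple effect was 1.07 ± 0.12, the sum -0.97 ± 0.34 (adjusted p = 0.1774, not called), and the departure 2.03 ± 0.28 (edgeR adjusted p = 9.772e-06). In Mettl3-/- cells, outside the contrast, Dnmt3l fell instead, to a mean of 26.2 CPM against 76.2 CPM in wild type. That change was -1.58 ± 0.19 (edgeR adjusted p = 6.526e-10), opposite to the triple effect. Cd4, the T-cell co-receptor, had 40.6 and 58.9 CPM in triple-knockout libraries, 7.76 to 18.4 CPM in the single-knockout libraries, and 21.6 and 19.6 CPM in wild type. Its departure was 3.72 ± 0.65 (edgeR adjusted p = 0.0001737). Hand2, a heart and limb transcription factor, had 24.96 and 39.7 CPM in triple-knockout libraries and 1.29 to 6.65 CPM in single-knockout libraries, against 11.7 and 2.675 CPM in wild type. Its departure of 4.80 ± 1.21 was called (edgeR adjusted p = 0.01656) but was lost without triple-knockout library B, Ythdf2-/- library A or wild-type library A, with an adjusted p of up to 0.8542. Xlr, Nuggc and AI662270 had the same shape, with triple effects of 2.13 ± 0.33, 0.97 ± 0.16 and 0.97 ± 0.14, and their departures were lost in 7, 8 and 6 of the 10 fits with a library left out.

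**Figure D2:**
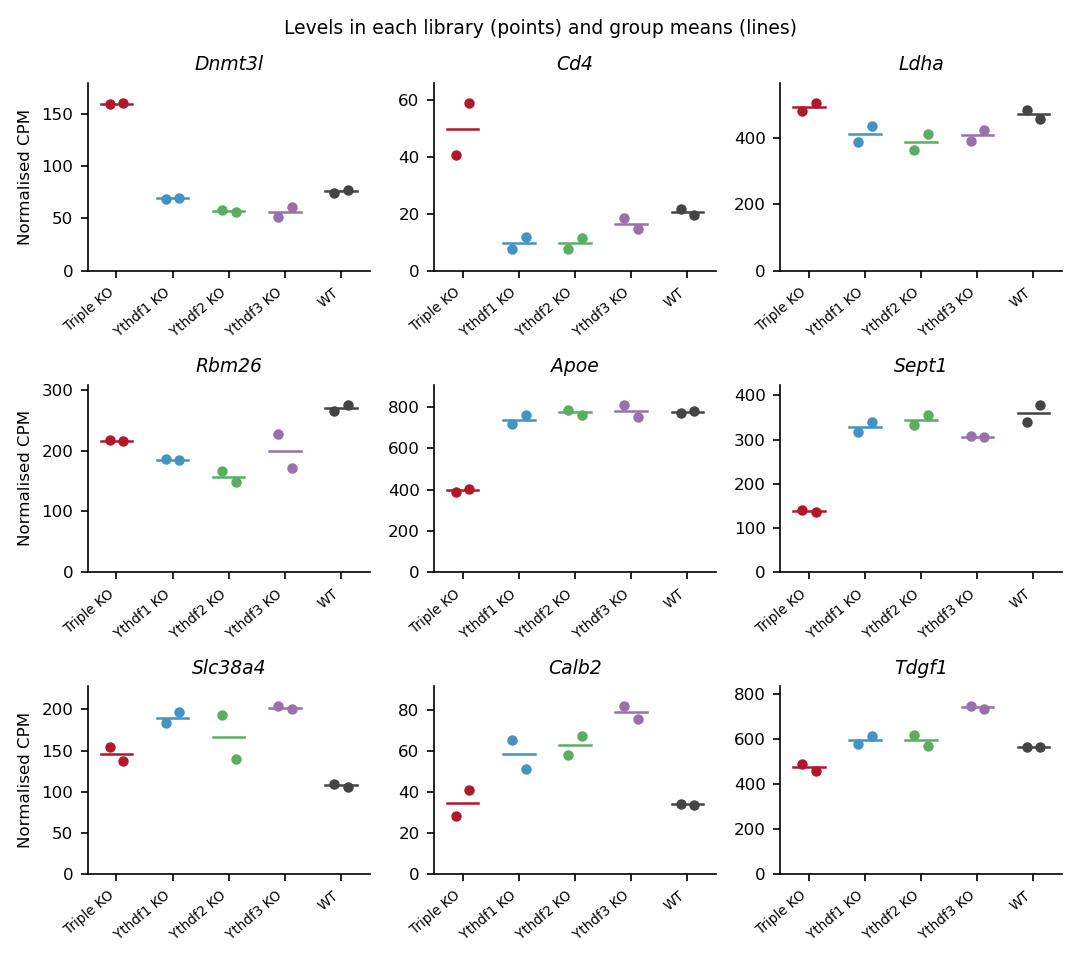
Points are CPM after TMM scaling in the 2 libraries of each group, lines are group means, and groups run from triple knockout through the single knockouts to wild type. Among the 5 groups shown, Apoe and Sept1 are lowest in the triple knockout, Dnmt3l and Cd4 are high in it, and Slc38a4 and Calb2 are high in the single knockouts.

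A stricter count asked where the triple knockout differed from wild type and from each single knockout, all in 1 direction. By that rule 379 genes (3.17%) were higher and 240 (2.01%) lower in the triple knockout than in all 4 other groups. Of the 379 higher genes, 18 had a departure called in the direction of the triple effect and 7 in the opposite one. Of the 240 lower genes, 39 had one in the direction of the triple effect and 0 in the opposite one. Over all 11951 tested genes, 119 called departures had the direction of the triple effect and 106 the opposite one. The rule and the departure share the differences between the triple and each single knockout, so the choice of genes fixes part of these counts. The median triple effect of the 379 genes was 1.34 and their median sum 0.57. For the 240 genes these medians were -1.12 and -0.34. DESeq2 found 46 and 26 genes by this rule. Leaving out a library gave 199 to 359 higher and 97 to 226 lower genes. The fewest higher came without triple-knockout library A, with 207 without its library B, 227 without Ythdf3-/- library B and 241 without Ythdf1-/- library A. The fewest lower came without triple-knockout library B, with 123 without its library A, 139 without Ythdf3-/- library B and 150 without Ythdf1-/- library B.

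The 309 genes with a sum called higher had a median sum of 1.41 and a median triple effect of 0.63. The 345 with a sum called lower had medians of -2.11 and -0.91. The 1590 genes called higher in the triple knockout had a median triple effect of 0.64 and a median sum of 0.59. The 1406 called lower had medians of -0.90 and -0.85. Choosing genes by one quantity inflates that quantity in the chosen set, and all of these effects share the wild-type libraries.

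Slc38a4, Calb2, Cldn7 and Pdzrn4 had higher means than wild type in all 3 single knockouts, as 109 of the 124 lower departures did. Slc38a4, named after its values were seen, is an imprinted neutral amino acid transporter at chr15:96994820-97055956 (minus strand). It had 154 and 137 CPM in triple-knockout libraries, 183 and 197 CPM in Ythdf1-/-, 194 and 140 CPM in Ythdf2-/- and 204 and 201 CPM in Ythdf3-/- libraries, against 110 and 106 CPM in wild type. Every knockout library lay above wild type, and the triple knockout overlapped the singles. The triple effect was 0.43 ± 0.13 and the sum 2.33 ± 0.27, a departure of -1.91 ± 0.23 (edgeR adjusted p = 8.812e-08; DESeq2 adjusted p = 0.02021). Calb2, the calcium buffer calretinin, had 28.1 and 41.1 CPM in triple-knockout libraries, 51.4 to 82.0 CPM in the single-knockout libraries, and 34.2 and 33.9 CPM in wild type. The single knockouts lay above both other groups, and the departure was -2.83 ± 0.37 (edgeR adjusted p = 2.909e-07; DESeq2 adjusted p = 0.03408). Cldn7, a tight-junction claudin, averaged 30.6 CPM in triple-knockout cells, 43.5, 48.0 and 39.4 CPM in Ythdf1-/-, Ythdf2-/- and Ythdf3-/- cells, and 21.5 CPM in wild type. Its departure was -2.49 ± 0.46 (edgeR adjusted p = 0.001362), with an adjusted p of 0.06551 without wild-type library A. Pdzrn4 averaged 23.5 CPM in triple-knockout cells, 15.2 to 22.6 CPM over the 3 single-knockout means, and 4.03 CPM in wild type, a departure of -4.10 ± 0.84 (edgeR adjusted p = 0.003848) that was lost without Ythdf3-/- library B or wild-type library A.

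In the opposite direction, some genes were lower than wild type in every knockout group, with a triple effect smaller than the sum of the single effects. Foxd1, a forkhead transcription factor, had 14.04 and 5.48 CPM in triple-knockout libraries and 6.56 to 18.1 CPM in the single-knockout libraries, against 41.4 and 41.9 CPM in wild type. All 8 knockout libraries lay below wild type, and the triple-knockout libraries overlapped those of each single knockout. The triple effect was -2.12 ± 0.32 and the sum -5.81 ± 0.66, a departure of 3.69 ± 0.71 (edgeR adjusted p = 0.00108; 0.1954 without triple-knockout library A). AA986860 and Hormad2, a protein of the meiotic chromosome axis, had the same form, with departures of 2.70 ± 0.45 and 2.75 ± 0.49 (edgeR adjusted p = 0.0002712 and 0.0003573). Hormad2 missed the threshold without triple-knockout library B, at an adjusted p of 0.05001. On a scale that adds CPM, the expected level of these 3 genes would lie below 0, at -49.6, -41.6 and -34.3 CPM for Foxd1, AA986860 and Hormad2, so a full sum cannot be reached there.

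Peg12, a paternally expressed imprinted gene, had 64.0 and 46.5 CPM in triple-knockout libraries and 13.1 to 23.4 CPM in the single-knockout libraries, against 37.8 and 30.3 CPM in wild type. The 3 groups of libraries did not overlap, and the departure was 3.26 ± 0.50 (edgeR adjusted p = 1.614e-05). Tnnt2, cardiac troponin T, averaged 48.4 ± 8.9 CPM in triple-knockout cells, 16.0 ± 0.6, 20.2 ± 1.1 and 16.2 ± 1.6 CPM in the singles and 29.6 ± 4.9 CPM in wild type (SD, n = 2 each), a departure of 3.00 ± 0.55 (edgeR adjusted p = 0.0003888; 0.05766 without wild-type library B). Ptprtos had 73.3 and 75.3 CPM in triple-knockout libraries, with 54.4 and 68.9 CPM in Ythdf1-/-, 24.6 and 29.1 CPM in Ythdf2-/- and 38.5 and 45.2 CPM in Ythdf3-/- libraries, against 76.6 and 81.1 CPM in wild type. Its departure was 2.71 ± 0.34 (edgeR adjusted p = 8.812e-08). Efnb1 (an ephrin), Scara5 (a ferritin receptor), Dgat2 (the last step of triglyceride synthesis), Prom1 (the membrane protein CD133) and Serpina3m (a serpin) completed the largest higher departures, at 2.65 to 2.91. These 5 calls were lost in 2, 2, 6, 6 and 8 of the 10 fits with a library left out. Among the largest lower departures, Thpo (thrombopoietin), Fxyd2 (a regulator of the sodium pump), Slc44a3, Lpar6 (a lysophosphatidic acid receptor) and Ism2 departed by -2.76 to -2.31, and were lost in 7, 8, 6, 5 and 2 of these fits.

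Genes of the totipotent 2-cell embryo were strongly higher in the triple knockout yet fell short of the log-scale sum. Cultures of stem cells hold a small share of cells that switch on these genes, among them the Zscan4 telomere factors, the Usp17l deubiquitinases and the Tcstv genes. Of 33 listed genes 26 were tested; 24 rose in the triple knockout, 0 fell, and 18 were higher in it than in all 4 other groups. Even so, 6 had a departure called lower and 0 called higher, and the departure was below 0 in 23 of 26. Without wild-type library B, 5 of these 6 calls were lost and 1, that of Tcstv1, held. The list's median triple effect was 4.10 and its median sum 6.11, with a median departure of -2.02, against -0.002 for all tested genes. Over all 11951 tested genes the departure was below 0 in 5998, with 1.04% called lower and 0.845% higher. In the triple knockout 13.3% of all tested genes rose and 3.17% were higher than in all 4 other groups. In bulk RNA a larger share of cells of this kind and more RNA in each such cell cannot be told apart. Many of these genes are near-identical copies whose reads the counting may have split, so values of single members are uncertain.

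Usp17lb (chr7:104840257-104842603, minus strand) had 223 and 227 CPM in triple-knockout libraries, 122 and 117 CPM in Ythdf1-/-, 23.3 and 17.5 CPM in Ythdf2-/- and 51.9 and 59.8 CPM in Ythdf3-/- libraries, against 9.91 and 8.02 CPM in wild type. The 5 groups did not overlap and kept the order triple, Ythdf1-/-, Ythdf3-/-, Ythdf2-/- and wild type. The triple effect was 4.63 ± 0.18 and the sum 7.51 ± 0.67, a departure of -2.88 ± 0.54 (edgeR adjusted p = 0.0027). In Mettl3-/- cells, outside the contrast, Usp17lb averaged 11.7 CPM against 8.97 CPM in wild type, a change of 0.28 ± 0.39 that was not called (edgeR adjusted p = 0.7022). Usp17lc, Usp17le and Tcstv1 departed by -2.80 ± 0.48, -2.24 ± 0.43 and -4.41 ± 0.77 (edgeR adjusted p = 0.0005806, 0.004764 and 0.0003366). The 3 Usp17l calls were lost without wild-type library B, at adjusted p values of 0.1013 for Usp17lb, 0.05121 for Usp17lc and 0.2243 for Usp17le, while that of Tcstv1 held without each library in turn. Zscan4c and Zscan4d, named outside the ranking rule, had departures of -2.21 ± 0.56 and -1.89 ± 0.65, with edgeR adjusted p values of 0.05185 and 0.2358. Spz1, named after its values were seen, had 0 counts in both wild-type libraries, so its fitted departure of -10.04 depends on the prior count and gives no size. Its call was lost without Ythdf2-/- library B or either wild-type library, and that of Tmem92 (-2.46 ± 0.64, edgeR adjusted p = 0.04829) in 8 of 10 fits with a library left out.

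The promoters of Usp17lb and Usp17lc are shown because these gene copies moved together. Both run from 250 bases before to 50 bases after the start (RefSeq, GRCm38.p6), 5′ to 3′ on the gene's strand, with capitals marking their longest shared run of 29 bases. Usp17lb lies at chr7:104842534-104842833 on the minus strand and Usp17lc at chr7:103416446-103416745 on the plus strand.
Usp17lb: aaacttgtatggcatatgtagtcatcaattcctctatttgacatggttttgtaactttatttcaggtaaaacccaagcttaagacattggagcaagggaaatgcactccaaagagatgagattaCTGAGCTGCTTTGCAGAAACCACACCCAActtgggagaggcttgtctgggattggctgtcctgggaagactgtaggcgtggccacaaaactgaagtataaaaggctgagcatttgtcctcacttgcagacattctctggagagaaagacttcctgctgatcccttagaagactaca
Usp17lc: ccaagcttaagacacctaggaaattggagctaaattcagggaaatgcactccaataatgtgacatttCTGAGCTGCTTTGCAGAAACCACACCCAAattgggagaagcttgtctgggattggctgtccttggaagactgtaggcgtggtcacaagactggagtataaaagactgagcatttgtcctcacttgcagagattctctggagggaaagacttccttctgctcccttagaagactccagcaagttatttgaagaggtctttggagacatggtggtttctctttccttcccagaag
Over 243 aligned columns the pair had 209 identical bases (86.0%). The 29-base run, searched on both strands, stood in 4 of 32851 promoters of that length, those of Usp17la, Usp17lb, Usp17lc and Usp17ld. The letters TATAAAAG, searched on both strands and not overlapping that run in these promoters, stood in 7 of 16 promoters of the 2-cell list (43.8%) and in 1.70% of the 32851 promoters. All 7 belong to copies of the Usp17l or Zscan4 families (Usp17lb, Usp17lc, Usp17ld, Zscan4b, Zscan4c, Zscan4d and Zscan4f), so they are not independent promoters. The letters stood in 0.816% of the 11526 promoters of tested genes and in 3.03% of the 231 promoters of called departures. A match is a description of these letters and not a binding site.

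The sign of the departure of the 2-cell genes depended on the scale on which effects are added. Summed over the 26 tested genes, the level was 2879 and 2847 CPM in triple-knockout libraries, 1682 and 1705 CPM in Ythdf1-/-, 690 and 660 CPM in Ythdf2-/- and 1119 and 1015 CPM in Ythdf3-/- libraries, against 557 and 526 CPM in wild type. The gain over wild type was 2322 CPM in the triple knockout, against 1812 CPM for the 3 single gains together, of which Ythdf1-/- gave 1152, Ythdf3-/- 526 and Ythdf2-/- 134 CPM. So the triple gain was 1.28 times the added single gains. In 22 of the 26 genes the triple-knockout mean lay above the level expected from adding CPM, while in 23 of 26 it lay below that from adding logs. Over all 11951 tested genes these counts were 6269 and 5998. Across all 225 called departures, all 101 higher ones kept their sign on the CPM scale, and 5 of the 124 lower ones reversed. These were Usp17lb, Usp17lc, Usp17le, Tmem92 and Gm4971, the last named after its values were seen. Where all 3 singles lie on 1 side of wild type, adding logs never expects less than adding CPM. A higher departure can then hardly reverse, and 94 of the 101 had all 3 singles below wild type. Their kept sign therefore says little about the scale. For Usp17lb the level expected from adding CPM was 178 CPM and that from adding logs of the means 1692 CPM, with 225 CPM observed.

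**Figure D3:**
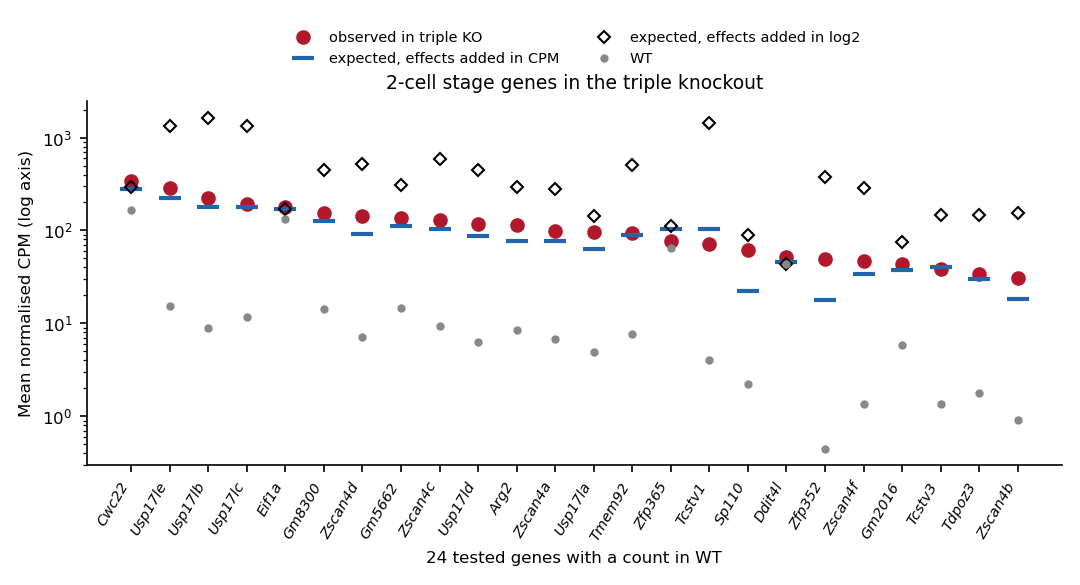
Mean CPM (log axis) of the 24 tested 2-cell stage genes with a count in wild type, with the triple-knockout level (red), the level expected from adding single effects in CPM (blue bar) or in log2 (open diamond), and wild type (grey). For Usp17lb the observed 225 CPM lie above the 178 CPM of the added CPM and far below the expectation from logs.

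Among related embryo genes, those of the Pramel and Dppa families split. Of 11 tested, 8 rose in the triple knockout and 4 of these were higher than in all 4 other groups, with 2 departures called lower and 0 higher. The list's median departure was 0.23. Of all tested genes 13.3% rose in the triple knockout and 3.17% were higher than in all 4 other groups. Their departures were called lower in 1.04% and higher in 0.845%. Dppa3 (Stella), a maternal factor that protects against demethylation, had 154 and 140 CPM in triple-knockout libraries, 118 and 129 CPM in Ythdf1-/-, 69.8 and 68.7 CPM in Ythdf2-/- and 66.9 and 47.9 CPM in Ythdf3-/- libraries, against 36.9 and 31.2 CPM in wild type. Its departure was -1.49 ± 0.34 (edgeR adjusted p = 0.01971), lost without 4 of the 10 libraries (adjusted p up to 0.2716). On the CPM scale 182 CPM were expected and 147 CPM observed. Pramel7, a factor of naive pluripotency named after its values were seen, had 101 and 95.8 CPM in triple-knockout libraries, 2.33 to 10.0 CPM in single-knockout libraries and 0.901 and 2.675 CPM in wild type. Its departure of 1.797 ± 1.67 was not called (edgeR adjusted p = 0.7871), and its interval ran from -1.53 to 5.12.

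Of 28 tested germline and meiotic genes, 20 rose in the triple knockout, 1 fell, and 12 were higher in it than in all 4 other groups. The departure was called higher for 1, Hormad2, and lower for 1, Dpep3, and the median departure was 0.17. Among all tested genes 13.3% rose, 11.8% fell and 3.17% were higher than in all 4 other groups. Departures were called higher for 0.845% of them and lower for 1.04%. Dpep3, a testis membrane protein, averaged 58.2 CPM in triple-knockout cells, 54.6, 41.8 and 50.7 CPM in Ythdf1-/-, Ythdf2-/- and Ythdf3-/- cells and 22.9 CPM in wild type. Its departure was -1.92 ± 0.41 (edgeR adjusted p = 0.01433), lost without Ythdf3-/- library B and without either wild-type library. Dazl, an RNA-binding protein of germ cells named outside the ranking rule, had a triple effect of 1.51 and a sum of 1.07, a departure of 0.45 ± 0.24 that was not called (edgeR adjusted p = 0.5895).

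Naive pluripotency genes leaned below the sum. Of 30 tested, 24 had a departure below 0, 4 were called lower (Dppa5a, Tdh, Fbxo15 and Dppa3) and 0 higher, with a median departure of -0.27. Over all tested genes, 5998 of 11951 departures lay below 0 and 1.04% were called lower. Fbxo15, an F-box protein of undifferentiated cells, had 728 and 700 CPM in triple-knockout libraries, 453 and 462 CPM in Ythdf1-/-, 363 and 336 CPM in Ythdf2-/- and 403 and 396 CPM in Ythdf3-/- libraries, against 223 and 250 CPM in wild type. Each single raised it and the triple raised it most, by 1.59 ± 0.07, short of the sum of 2.28 ± 0.19 (departure -0.68 ± 0.15, edgeR adjusted p = 0.006415; 0.2337 without wild-type library A). On the CPM scale 735 CPM were expected and 714 CPM observed. Dppa5a, an RNA-binding protein of stem cells, had 448 and 472 CPM in triple-knockout libraries and 497 to 556 CPM in single-knockout libraries, against 437 and 445 CPM in wild type. Its departure was -0.77 ± 0.13 (edgeR adjusted p = 6.192e-05). Tdh, the threonine dehydrogenase that feeds one-carbon metabolism in mouse stem cells, had 409 and 422 CPM in triple-knockout libraries and 483 to 603 CPM in single-knockout libraries, against 477 and 472 CPM in wild type, a departure of -0.65 ± 0.13 (edgeR adjusted p = 0.001855). The core factors, named outside the ranking rule, did not pass: Pou5f1, Nanog and Sox2 departed by -0.32 ± 0.11, -0.31 ± 0.13 and -0.45 ± 0.14, with edgeR adjusted p values of 0.1562, 0.2953 and 0.06911.

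Formative pluripotency and Nodal genes departed in both directions. Of 18 formative genes, 3 were called higher (Dnmt3l, Lefty1 and Lefty2) and 1 lower (Otx2), with a median departure of 0.56. Of 11 Nodal and Wnt genes, 2 were called higher and 1 lower, with a median of 0.27. The shares over all tested genes were 0.845% higher and 1.04% lower. Tdgf1, the Nodal co-receptor Cripto, had 490 and 455 CPM in triple-knockout libraries, 577 and 613 CPM in Ythdf1-/-, 615 and 569 CPM in Ythdf2-/- and 745 and 732 CPM in Ythdf3-/- libraries, against 564 and 563 CPM in wild type. The triple knockout lay below every other library and the singles lay above wild type, a departure of -0.80 ± 0.13 (edgeR adjusted p = 1.614e-05). Lefty1, a secreted Nodal inhibitor, had 26.5 and 35.6 CPM in triple-knockout libraries and 9.31 to 37.2 CPM in single-knockout libraries, against 43.2 and 41.0 CPM in wild type. Its departure was 2.38 ± 0.48 (edgeR adjusted p = 0.004764; up to 0.06881 without triple-knockout library B, Ythdf2-/- library B or wild-type library A). Lefty2 departed by 0.90 ± 0.21 (edgeR adjusted p = 0.04225) and lost the call without any 1 of the 10 libraries. Otx2, a transcription factor of the formative state, had 18.7 and 30.1 CPM in triple-knockout libraries and 32.2 to 48.9 CPM in single-knockout libraries, against 27.9 and 20.5 CPM in wild type, a departure of -2.25 ± 0.47 (edgeR adjusted p = 0.005815; up to 0.152 without Ythdf1-/- library B or wild-type library B).

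The 2 forms of lactate dehydrogenase departed in opposite directions. Ldha, the muscle-type subunit that favours lactate, had 480 and 504 CPM in triple-knockout libraries and 362 to 434 CPM in single-knockout libraries, against 484 and 456 CPM in wild type. Its departure was 0.74 ± 0.14 (edgeR adjusted p = 0.0004304). Ldhb, the heart-type subunit, had 301 and 305 CPM in triple-knockout libraries and 318 to 389 CPM in single-knockout libraries, against 285 and 273 CPM in wild type, a departure of -0.93 ± 0.15 (edgeR adjusted p = 3.331e-05). Both calls held without each library in turn. Ndrg1, a hypoxia-induced gene, and Slc16a3, the lactate exporter MCT4, departed by 2.21 ± 0.44 and 1.63 ± 0.36 (edgeR adjusted p = 0.004084 and 0.005491). The Slc16a3 call was lost without Ythdf1-/- library A, Ythdf3-/- library A or wild-type library A. Of 26 tested glycolysis and hypoxia genes, 3 were called higher and 1 lower, with a median departure of 0.52, a median triple effect of -0.04 and a median sum of -0.48. Departures of all tested genes were called higher in 0.845% and lower in 1.04%.

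The list of imprinted genes gave 3 higher departures and 0 lower among 21 tested, with a median of 0.19. It does not hold Slc38a4 or Peg12, which are imprinted too and were called lower and higher. In all tested genes the called shares were 0.845% higher and 1.04% lower. Peg10, a retrotransposon-derived gene of the placenta, had 76.4 and 64.3 CPM in triple-knockout libraries and 43.3 to 74.5 CPM in single-knockout libraries, against 97.3 and 97.2 CPM in wild type, a departure of 1.54 ± 0.29 (edgeR adjusted p = 0.00312). Plagl1, a zinc-finger factor, and Grb10, a growth-factor adaptor, departed by 1.34 ± 0.29 and 1.38 ± 0.30 (edgeR adjusted p = 0.007864 and 0.01865), and both were lowest in Ythdf2-/- cells, at 37.9 and 36.9 CPM. Their calls were lost in 3 and 6 of the 10 fits with a library left out.

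Extracellular matrix and adhesion genes leaned below the sum, with 18 of 24 departures below 0, 4 called lower (Cldn7, Nid1, Fn1 and Sparc) and 0 higher, and a median of -0.43. Among all tested genes, 5998 of 11951 departures lay below 0 and 1.04% were called lower. Sparc and Nid1, basement membrane proteins that primitive endoderm also makes, departed by -0.64 ± 0.15 and -0.63 ± 0.14, and fibronectin, Fn1, by -0.60 ± 0.14 (edgeR adjusted p = 0.01344, 0.006737 and 0.008199). Sparc lost the call without triple-knockout library B or either wild-type library, Nid1 without Ythdf3-/- library B or wild-type library B, and Fn1 without wild-type library B. Listed markers of primitive endoderm, 5 of 6 in the table, summed to 64.0 to 65.7 CPM in triple-knockout libraries, 19.9 to 36.2 CPM in single-knockout libraries and 40.1 to 45.9 CPM in wild type. Fibroblast feeder markers, 4 of 7 in the table with Postn, Lum and Dcn absent from it, summed to 81.1 to 87.6, 31.0 to 71.1 and 53.5 to 62.2 CPM in the same order of groups. Both sums lay highest in the triple knockout. Neural markers did so too, at 84.87 to 87.35, 63.8 to 78.71 and 74.0 to 75.67 CPM in that order. Mesoderm markers summed to 51.47 to 60.23, 36.81 to 52.38 and 46.36 to 48.65 CPM. Trophoblast markers were instead lower than in wild type, at 96.7 to 112.2, 103.7 to 175.8 and 140 to 155.8 CPM. The part of these marker sets in the departures was not tested.

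Cholesterol synthesis genes had 18 of 21 departures below 0, with 1 called lower and 0 higher and a median of -0.32. For all tested genes, 5998 of 11951 departures lay below 0 and 1.04% were called lower. Hmgcs1, which makes the precursor of HMG-CoA reduction, averaged 226 CPM in triple-knockout cells, 291, 269 and 298 CPM in Ythdf1-/-, Ythdf2-/- and Ythdf3-/- cells and 247 CPM in wild type, a departure of -0.76 ± 0.16 (edgeR adjusted p = 0.007827; 0.1302 without wild-type library A). Summed over the list, single gains over wild type of 130, 166 and 289.5 CPM stood against a triple gain of 29.7 CPM. Cytosolic ribosomal protein genes had 61 of 79 departures below 0, 1 called lower (Rps2, lost without Ythdf2-/- library B or wild-type library A) and 0 higher, with a median of -0.13. For p53 targets the departure was below 0 in 18 of 24, with 0 called in either direction and a median of -0.24.

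The remaining lists held few or no called departures. Over all tested genes 0.845% were called higher and 1.04% lower, so a list this short says little by holding none. Immediate early genes had 1 of 14 called higher, Myc, with a departure of 2.23 ± 0.57 (edgeR adjusted p = 0.03698) that was lost without any 1 of the 10 libraries. ATF4 stress genes had 1 of 23, Phgdh, the entry enzyme of serine synthesis, at 1.23 ± 0.30, lost in 6 of the 10 such fits. DNA methylation genes had 2 of 18 called higher, Dnmt3l and Tet3, and trophoblast genes 1 of 12, Fgfr2, lost in 7 and 9 fits for Tet3 and Fgfr2. Fibroblast and feeder genes had 1 of 9 called higher, Fbn1, lost in 4 fits, and 1 lower, Fn1. Primitive endoderm genes had 2 of 8 called lower, Nid1 and Sparc. None was called by edgeR among 9 Bmp4 and Id genes, 6 mesoderm and endoderm genes, 9 neural genes, 11 retinoic acid genes, 16 interferon and nucleic acid sensing genes, 11 m6A writer genes, 17 m6A readers and erasers, 31 deadenylation and decapping genes or 20 heat shock genes. DESeq2 called none there either, but it called only 5 departures among all tested genes, so this adds nothing. The median departures of these lists ran from -0.09 for readers and erasers to 0.79 for neural genes. In these lists and the p53 list together, 153 different genes were tested and the 95% interval of the departure left out 0 for 32 of them before adjustment, 0 of them among the m6A writers or the deadenylation genes. Among all 11951 tested genes, 1470 departures had an unadjusted p under 0.05 in edgeR.

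**Figure D4:**
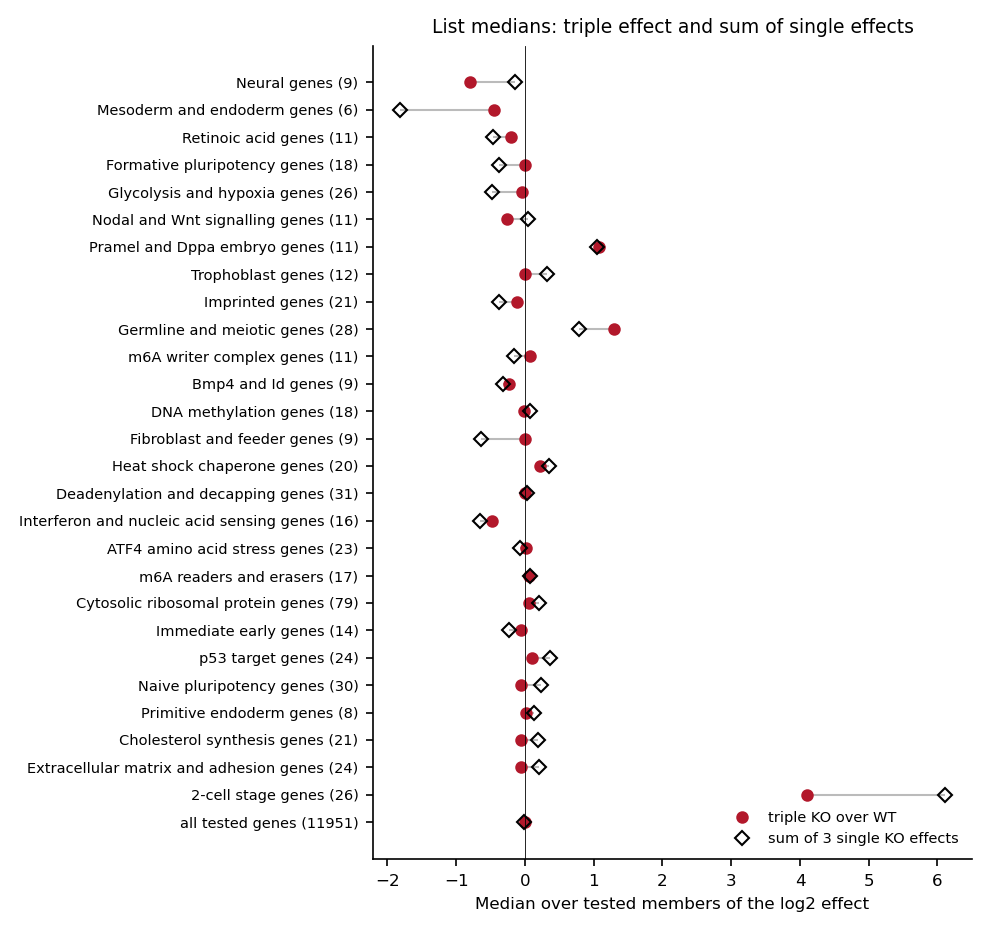
Each row is a gene list with its number of tested members, sorted by median departure, with all tested genes at the bottom. Red points are median triple-knockout effects and open diamonds median sums of the single effects, in log2 over wild type. The 2-cell list lies at 4.10 for the triple and 6.11 for the sum.

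Some departures lay together on chromosomes. The stretches were chosen after the values were seen, from 224 windows of 10 Mb with at least 15 tested genes. Distal chromosome 14, from 100 Mb on, held 43 tested genes, of which 40 had a departure above 0 and 8 were called higher, with a median departure of 0.75. Relative to wild type the median there was -0.32 in the triple knockout, -0.17 in Ythdf1-/-, -0.59 in Ythdf2-/- and -0.33 in Ythdf3-/- cells, and -0.63 in Mettl3-/- cells, which are outside the contrast. Rbm26, an RNA-binding protein of nuclear RNA decay in this stretch, named after its values were seen, had 217 and 216 CPM in triple-knockout libraries, 186 and 184 CPM in Ythdf1-/-, 167 and 148 CPM in Ythdf2-/- and 228 and 172 CPM in Ythdf3-/- libraries, against 265 and 276 CPM in wild type. Its departure was 1.47 ± 0.18 (edgeR adjusted p = 3.079e-08; DESeq2 adjusted p = 0.03717). Distal chromosome 18, from 80 Mb on, held 21 tested genes, 18 with a departure below 0 and 5 called lower, Fbxo15 among them, with a median of -0.94. There the median was 0.32 in the triple knockout, 0.40, 0.47 and 0.45 in the single knockouts and 0.70 in Mettl3-/- cells. Apart from the windows at 100 to 110 Mb of chromosome 14 and 80 to 90 Mb of chromosome 18, the other 222 windows had median departures of -0.28 to 0.48. They include 120 to 130 Mb of chromosome 14, at 0.47, which is part of the first stretch. Among windows with fewer genes, chromosome 15 from 60 to 70 Mb held 11 tested genes, 10 with a departure above 0 and 3 called higher, with a median of 0.88. Myc and Ndrg1 lie in it. Chromosome copy number in these lines was not tested. The medians of all knockout genotypes thus lay on 1 side of wild type in each stretch. Outside distal chromosomes 14 and 18 and the Y chromosome, 91 departures were called higher and 119 lower. The 3 calls of the chromosome 15 window are among the 91.

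**Figure D5:**
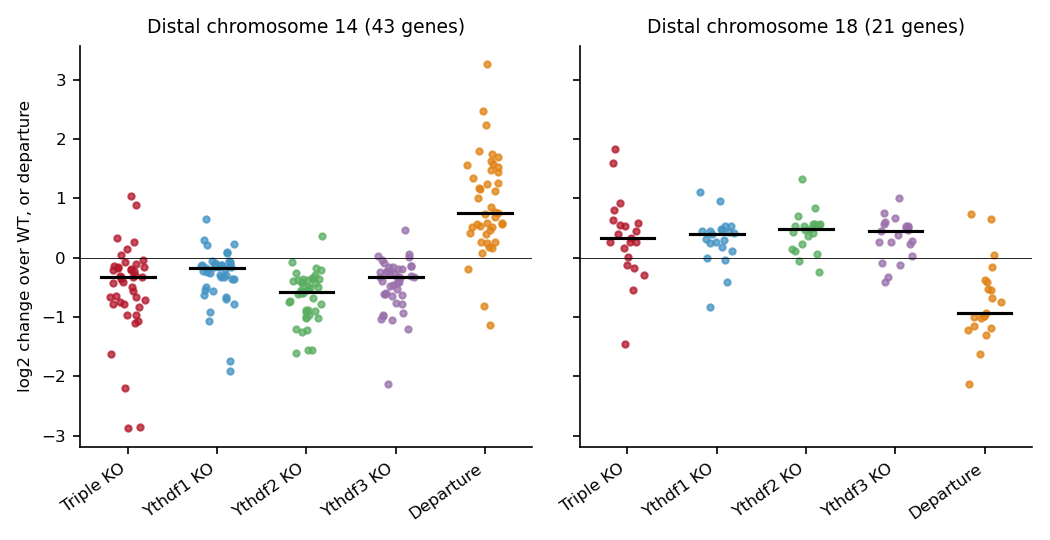
Points are genes of distal chromosome 14 (43) and distal chromosome 18 (21), showing the log2 change over wild type in each knockout and the departure; black lines are medians. Genes of the first stretch lie below wild type in most lines and those of the second above it.

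Levels of Y-linked transcripts differed between the genotypes. Eif2s3y, a Y-linked translation initiation factor named after its values were seen, had 64.0 and 63.0 CPM in triple-knockout libraries and 0 to 5.32 CPM in the single-knockout libraries, against 14.4 and 12.5 CPM in wild type. Its departure of 8.65 ± 1.00 was called by both tools (edgeR adjusted p = 2.255e-08). It rests on 0 and 4 counts in Ythdf1-/- libraries, 1 and 4 counts in Ythdf2-/- libraries and 1 and 4 counts in Ythdf3-/- libraries, and with a library left out it lay between 7.69 and 12.57, so its size is poorly set. Ddx3y, another Y-linked gene named after its values were seen, had 29.6 and 34.2 CPM in triple-knockout libraries and 1.16 to 5.55 CPM in single-knockout libraries, against 1.802 and 7.13 CPM in wild type. All 4 tested Y-linked genes had a departure above 0. The Ddx3y departure of 5.73 ± 1.42 was called (edgeR adjusted p = 0.02096) and was lost without library B of Ythdf1-/-, Ythdf2-/-, Ythdf3-/- or wild type.

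Transcript features separated the directions only in part. The longest annotated transcript (GENCODE M21) had a median of 2362 bases for the 123 matched genes with a lower departure and 3258 bases for the 101 with a higher one, against 3221 bases for the 11856 matched tested genes. GGACT, a form of the m6A consensus searched on the transcript strand, occurred 0.962 times per kb in the lower, 1.04 times in the higher, and 1.03 times in all matched genes (medians). It stood at least once in 84.6% of lower, 93.1% of higher and 92.0% of all matched genes.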

How the data were processed

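The authors deposited a table of raw counts per gene, 1 column per library. Per the submitters' processing notes, CASAVA 1.8.2, cutadapt, STAR 2.4.2a and DESeq2 were used with mm10; the sources used here name neither the counting tool nor its strand setting. The table lists 14006 genes, each with at least 6 counts in some library. Counts were taken as deposited and fitted with edgeR 4.0.16 (R 4.3.3, limma 3.58.1): TMM scaling, filterByExpr, and a robust quasi-likelihood fit over all 12 stem cell libraries in 6 groups. The Mettl3-/- libraries enter only the estimate of spread. P-values were adjusted by Benjamini-Hochberg over all 11951 tested genes, and a call is an adjusted p under 0.05. The departure is triple minus Ythdf1-/- minus Ythdf2-/- minus Ythdf3-/- plus 2 times wild type. Libraries held 612598 to 1111764 counts; their number and depth limit the precision. The fit was tested on simulated counts with known departures.

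Named genes were the targeted genes, the 12 largest called departures in each direction (mean log2 CPM of at least 4, at least 5 summed counts in each group), the 6 genes with the smallest p in each direction beyond every single knockout with a called departure of that sign, and up to 4 called members of each of the 27 gene lists, or the 2 with the smallest p. Genes named outside this rule were chosen after their values were seen, and the text says so at each. Unnamed loci, Y-linked genes and similar were left out of the rankings. The comparison and the lists were chosen with earlier results of these data known. Alternatives were DESeq2 1.42.0, RLE scaling, no filter, a filter of 30 CPM, the 10 libraries alone, a block for the library letter and each library left out. A floor on the quasi-dispersion was chosen after seeing the data.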

Additional observations from a re-analysis of the deposited data

Results flagged for a closer look

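In 5 genes the triple knockout differed from the added single knockouts by both edgeR and DESeq2, each a direct test of the difference between effects. The departure was -0.908 for Apoe, -2.825 for Calb2, -1.908 for Slc38a4, 1.475 for Rbm26 and 8.652 for the Y-linked Eif2s3y, in log2 units. All 5 calls held in edgeR without each library in turn.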

How the results depend on the processing

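DESeq2 gave smaller counts throughout, and the cause was not tested. It called 2 departures higher and 3 lower, of which 1 was further than the sum and 4 were short of it or opposite to it. It called 785 triple effects, 34 sums, 46 and 26 genes higher and lower beyond every single knockout, and 56, 11 and 29 genes in Ythdf1-/-, Ythdf2-/- and Ythdf3-/- cells. With each library left out in turn, departures called higher numbered 36 to 80 and lower 47 to 129. Triple effects numbered 1799 to 3163, sums 184 to 697, and genes beyond every single knockout 199 to 359 higher and 97 to 226 lower. Single effects numbered 193 to 427 for Ythdf1-/-, 54 to 249 for Ythdf2-/- and 112 to 343 for Ythdf3-/-. Departures further than the sum numbered 4 to 10, and the others 78 to 190. A left-out library leaves 1 in its group, assumed to vary like the other groups. In the full fit and in all 10 of these fits, 36 departures were called, 17 higher and 19 lower. RLE scaling, no filter, the 30 CPM filter, the 10 libraries alone, the replicate block and the dispersion floor kept every one of these counts within 1.5 times. With the library letter as a replicate block, 99 departures were called higher and 126 lower. Deviations from the group means had a same-letter correlation of 0.005 to 0.194, so the letters were not taken as pairs. Among named genes, DESeq2 lost 75 departure calls, the dispersion floor 12 and the replicate block 0, and no direction reversed.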

Other observations

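Several further genes, named after their values were seen, kept a called departure without each library in turn. Apela, which encodes a small secreted hormone of stem cells, had 237 and 226 CPM in triple-knockout libraries and 230 to 272 CPM in single-knockout libraries, against 168.5 CPM in each wild-type library. Every knockout library lay above wild type, and the departure was -1.32 ± 0.17 (edgeR adjusted p = 3.46e-07; DESeq2 adjusted p = 0.0505). Ablim1, an actin-binding protein, had 24.96 and 38.3 CPM in triple-knockout libraries and 61.9 to 124 CPM in single-knockout libraries, against 83.8 and 85.6 CPM in wild type, a departure of -1.80 ± 0.31 (edgeR adjusted p = 0.000286). Ooep, a maternal factor of the egg cortex, had 217 and 218 CPM in triple-knockout libraries and 265 to 355 CPM in single-knockout libraries, against 250.4 and 261 CPM in wild type, a departure of -0.99 ± 0.15 (edgeR adjusted p = 5.52e-05). Pnma5 had 88.9 and 112 CPM in triple-knockout libraries and 36.1 to 69.1 CPM in single-knockout libraries, against 93.7 and 76.7 CPM in wild type. The single knockouts lay below both other groups, and the departure was 2.24 ± 0.30 (edgeR adjusted p = 8.365e-07).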
